A study of Mus musculus with 6 samples.

Results

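The genes described here are the glutamate transporters, 3 vesicular (Slc17a6, Slc17a7 and Slc17a8) and 4 of the plasma membrane (Slc1a1, Slc1a2, Slc1a3 and Slc1a6). A probe set, the array's unit for measuring a transcript, was counted as a member when the platform annotation gave it 1 of these 7 symbols and no other. The rule found 18 of the 45037 probe sets tested, from 6 of the 7 genes: Slc17a6 had 2, Slc17a7 1, Slc1a1 3, Slc1a2 5, Slc1a3 6 and Slc1a6 1. Slc17a8 (VGLUT3) had none and was not analysed here, and 1 probe set that Slc1a2 shares with another gene was left out. Tissue came from newborn C57BL/6 mice at postnatal day 1, from the subiculum and the retrosplenial cortex in 1 dissection. The groups were wildtype littermates and mice with the D6/Zbtb20S transgene, whose areas the labels call transformed to CA1, a hippocampal field. Each group had 3 arrays, and the RNA on an array was a pool from 7 animals. The labels do not describe the transgene; D6 is known as an enhancer of the Dach1 gene that is active in the developing dorsal forebrain, and Zbtb20 as a zinc finger repressor of hippocampal pyramidal neurons.

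Glutamate is the main excitatory transmitter of the cortex. Vesicular transporters load it into synaptic vesicles, driven by a proton pump, and a cortical projection neuron is known for using mainly VGLUT1 or VGLUT2, with VGLUT2 prominent around birth and VGLUT1 rising afterwards. Plasma membrane transporters then clear glutamate by cotransport with sodium: GLAST and GLT-1 mainly on radial glia and astrocytes, EAAC1 on neurons, and EAAT4 best known from cerebellar Purkinje cells.

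Pearson's r between arrays, over all probe sets, was 0.992 to 0.997 within groups and 0.985 to 0.990 between them. Wildtype replicate 3 stood apart on the Zbtb20 probe set 1422064_a_at, at a log2 signal of 7.64 against 6.44 and 5.84 in wildtype replicates 1 and 2 and 8.88 to 9.10 in the D6/Zbtb20S arrays. The gap between its 3' and 5' actin controls was also the widest, 1.31 on the log2 scale, where wildtype replicates 1 and 2 had 0.53 and 0.88 and D6/Zbtb20S arrays 0.80 to 0.91. Results are given with and without it where it changed the call of a member or of a gene in the lists below. The sources used here do not give the litters behind each pool, so a p-value here speaks of the spread among pools, which may be technical. Array signals are relative within a probe set, so levels of different transporters were not compared with each other. In pooled tissue, fewer cells of a type and less RNA per cell cannot be told apart.

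Of the 18 probe sets, 1 fell and 1 rose in D6/Zbtb20S tissue at an adjusted p under 0.05 in limma: Slc17a6 (1428379_at) was 2.39-fold lower and Slc1a6 (1418933_at) 1.39-fold higher. That was 11.1% of the members, against 5.52% of all probe sets called (3.40% higher and 2.11% lower). The groups did not overlap on 6 of the 18 probe sets, 4 of them higher and 2 lower in D6/Zbtb20S, or 33.3% against 23.7% of all probe sets. Changes on the log2 scale had a median of -0.008 over the members and -0.019 over all probe sets, with 9 of 18 above 0. The fall of Slc17a6 passed in each of the 6 fits that left out 1 array, and the rise of Slc1a6 in 0 of them (unadjusted p = 0.0019 and adjusted p = 0.0391 with all arrays).

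**Figure D1:**
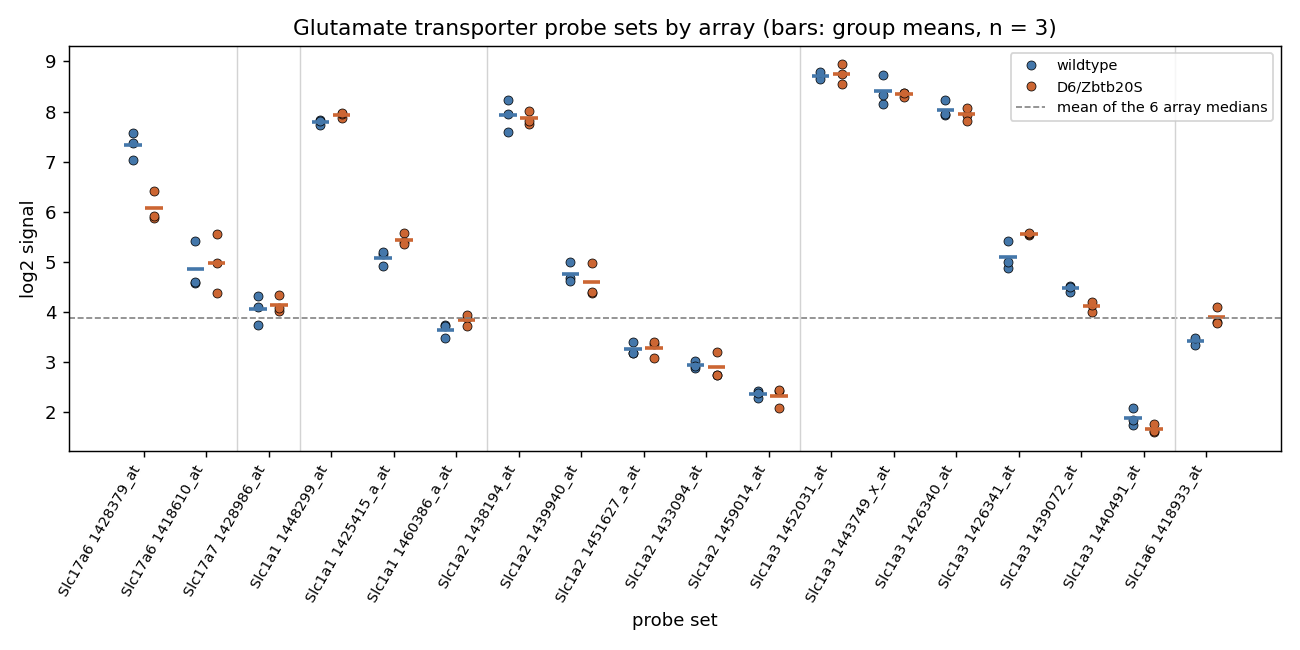
Log2 signal (vertical axis) of the 18 glutamate transporter probe sets (horizontal axis) on each wildtype array (blue) and D6/Zbtb20S array (orange); points are arrays, bars are group means (n = 3), and the dashed line is the mean of the 6 array medians. On Slc17a6 1428379_at all 3 D6/Zbtb20S arrays lie under all 3 wildtype arrays, while most other groups overlap.

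Slc17a6 encodes VGLUT2. On 1428379_at the wildtype arrays, replicates 1 to 3, read 7.03, 7.37 and 7.58 on the log2 scale, and the D6/Zbtb20S arrays read 6.41, 5.88 and 5.91. Every D6/Zbtb20S array lay under every wildtype array, with replicate 1 the highest of the transgenic arrays and replicate 1 the lowest of the wildtype ones. Group means were 7.33 ± 0.28 (SD, n = 3) for wildtype and 6.07 ± 0.29 (SD, n = 3) for D6/Zbtb20S, a log2 change of -1.26 ± 0.18 (SE; limma adjusted p = 0.00464), and the 95% interval of the fold was 1.81 to 3.16. Both means lay above the array median. The change was between -1.43 and -1.13 whichever array was left out (adjusted p from 0.00518 to 0.0306). Without wildtype replicate 3 it was -1.13 (adjusted p = 0.00728). In a linear model without limma's moderation of the variance, which called 200 of all probe sets, the adjusted p was 0.150.

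The other Slc17a6 probe set, 1418610_at, did not show this difference. It read 4.58, 4.59 and 5.42 in wildtype and 5.57, 4.38 and 4.98 in D6/Zbtb20S. The groups overlapped, and 1 array of each group stood above the rest of its group, wildtype replicate 3 and D6/Zbtb20S replicate 1. The log2 change was 0.11 ± 0.31 (SE), with a 95% interval from -0.61 to 0.83 that does not reach the change on 1428379_at (adjusted p = 0.897). The difference of the 2 probe sets within each array shifted by 1.37 (1418610_at minus 1428379_at; SD 0.31 in wildtype and 0.36 in D6/Zbtb20S, n = 3 each). The groups did not overlap on it (exact two-sided permutation p = 0.10, the smallest that 3 against 3 arrays can give; 0.15 after adjustment over the 3 pairs compared). These 2 probe sets were paired because they differed in call on these same arrays, so their separation is no independent support for a difference. Averaged over both probe sets, Slc17a6 was at -0.57 ± 0.22 (SE) and was not called (adjusted p = 0.17). Where each probe set lies on the Slc17a6 RNA was not analysed here, so whether they read different ends or forms of it was not tested.

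Since Slc17a6 and Slc1a6 were the genes with a call, the RefSeq promoter windows around their starts are shown (GRCm38.p6, plus strand, 300 bases each). Slc17a6 has 2 listed starts on chromosome 7, and Slc1a6 has 1 on chromosome 10. Capitals mark matches, on either strand, to the GC box GGGCGG and the E-box CANNTG. The TATA box, searched as TATAAA, is not in these windows.
Slc17a6, chr7:51621580-51621879: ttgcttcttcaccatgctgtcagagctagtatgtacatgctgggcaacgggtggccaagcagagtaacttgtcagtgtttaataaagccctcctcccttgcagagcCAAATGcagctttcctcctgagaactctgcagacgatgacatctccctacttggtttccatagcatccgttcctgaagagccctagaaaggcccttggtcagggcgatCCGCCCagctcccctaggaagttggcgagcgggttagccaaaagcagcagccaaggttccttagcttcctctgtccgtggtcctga
Slc17a6, chr7:51624387-51624686: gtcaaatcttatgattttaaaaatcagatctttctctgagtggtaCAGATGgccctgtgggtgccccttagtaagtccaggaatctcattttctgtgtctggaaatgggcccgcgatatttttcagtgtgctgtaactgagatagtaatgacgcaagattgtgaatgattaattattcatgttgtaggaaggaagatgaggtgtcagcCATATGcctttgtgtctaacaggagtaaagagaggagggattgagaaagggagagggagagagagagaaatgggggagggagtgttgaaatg
Slc1a6, chr10:78780246-78780545: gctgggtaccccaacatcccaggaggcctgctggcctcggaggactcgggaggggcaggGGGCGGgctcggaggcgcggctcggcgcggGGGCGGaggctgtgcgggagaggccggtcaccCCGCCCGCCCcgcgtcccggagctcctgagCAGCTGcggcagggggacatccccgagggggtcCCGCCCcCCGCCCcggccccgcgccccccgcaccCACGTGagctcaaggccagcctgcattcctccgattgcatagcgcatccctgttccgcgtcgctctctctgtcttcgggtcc
The upstream Slc17a6 window held 1 GC box, 1 E-box and 8 CpG dinucleotides, and the downstream window held 0 GC boxes, 2 E-boxes and 3 CpG. The Slc1a6 window was richer in G and C (75.7%, against 53.7% and 43.0%) and held 6 GC boxes, 2 E-boxes and 32 CpG, against a median of 7 CpG over all windows. Over 32851 promoter windows, 35.7% held a GC box, 72.3% an E-box and 13.6% a TATA box. These matches describe the letters only; no binding was measured in this series.

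Slc17a7 encodes VGLUT1, the other vesicular transporter of cortical neurons. Its probe set 1428986_at read 3.74, 4.33 and 4.10 in wildtype and 4.02, 4.08 and 4.35 in D6/Zbtb20S. The groups overlapped, and all values lay near the array medians of 3.83 to 3.97, a range in which changes on the log2 scale are compressed. The change was 0.092 ± 0.15 (SE; 95% interval from -0.26 to 0.45, adjusted p = 0.816). The within-array difference of Slc17a7 and Slc17a6 (1428379_at) shifted by 1.35 (SD 0.22 in wildtype and 0.42 in D6/Zbtb20S, n = 3 each), most of it the fall of 1428379_at, and the groups did not overlap on it (exact two-sided permutation p = 0.10, again the smallest possible; 0.15 adjusted over 3 pairs). It was between 1.17 and 1.58 with any 1 array left out. With 1418610_at in place of 1428379_at the shift was -0.018, so it rests on the choice of Slc17a6 probe set.

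Among the plasma membrane transporters, Slc1a6 (EAAT4) was the member that rose. The wildtype arrays read 3.44, 3.35 and 3.48 and the D6/Zbtb20S arrays 3.80, 3.78 and 4.11. All D6/Zbtb20S arrays lay above all wildtype arrays, with D6/Zbtb20S replicate 3 the highest. The signal was dim: it was under its array's median on 5 of the 6 arrays. Means were 3.42 ± 0.069 (SD, n = 3) and 3.90 ± 0.19 (SD, n = 3), a log2 change of 0.47 ± 0.11 (SE; adjusted p = 0.0391) with a 95% interval of the fold from 1.17 to 1.64. Leaving out any 1 array ended the call, with adjusted p of 0.0925, 0.168 and 0.0535 without wildtype replicates 1, 2 and 3 and 0.0814, 0.0703 and 0.0668 without D6/Zbtb20S replicates 1, 2 and 3, though the change stayed between 0.36 and 0.53. The ordinary linear model gave an adjusted p of 0.206. Over all genes 4.06% were called higher and 3.64% lower. Of 5 measured genes in a list written for Purkinje cells 0 rose and 2 fell. These were the carbonic anhydrase-related gene Car8 (-1.52 ± 0.16, SE) and the growth factor gene Gdf10 (-1.36 ± 0.13, SE). Whether Gdf10 marks Purkinje cells was not tested, and the list's other measured genes were not called: Calb1 (-0.26), Pcp2 (-0.081) and Pvalb (0.025). The value for Car8 is that of its brightest probe set; neither of its 2 other probe sets was called, and the mean of all 3 was -0.90 (adjusted p = 0.0123). The list's mean log2 signal per array was 5.44 to 5.49 in wildtype and 4.71 to 4.93 in D6/Zbtb20S. That step lies mostly in Car8 and Gdf10 and was not taken as a level of Purkinje cells. The list's defining marker Pcp2 lay under the array median in both groups. The part of these genes in the Slc1a6 result was not tested.

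Slc1a1 encodes EAAC1, a neuronal transporter of glutamate and cysteine. Its 3 probe sets all had positive changes and none passed. On 1425415_a_at wildtype arrays read 5.16, 5.19 and 4.91 and D6/Zbtb20S arrays 5.57, 5.40 and 5.36. The D6/Zbtb20S arrays lay above the wildtype arrays without overlap. The change of 0.36 ± 0.10 (SE) had a 95% interval from 0.12 to 0.59 and did not pass (unadjusted p = 0.00794, adjusted p = 0.0985), and its adjusted p was 0.066 to 0.293 over 13 alternative settings. On 1448299_at, the brightest of the 3, wildtype read 7.82, 7.72 and 7.81 and D6/Zbtb20S 7.87, 7.95 and 7.97. The groups were again apart, by a small step of 0.14 ± 0.077 (SE; adjusted p = 0.389). The dim 1460386_a_at overlapped between groups (0.21 ± 0.10, SE; adjusted p = 0.342), and the mean of the 3 probe sets was at 0.24 ± 0.074 (SE; adjusted p = 0.0889).

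**Figure D2:**
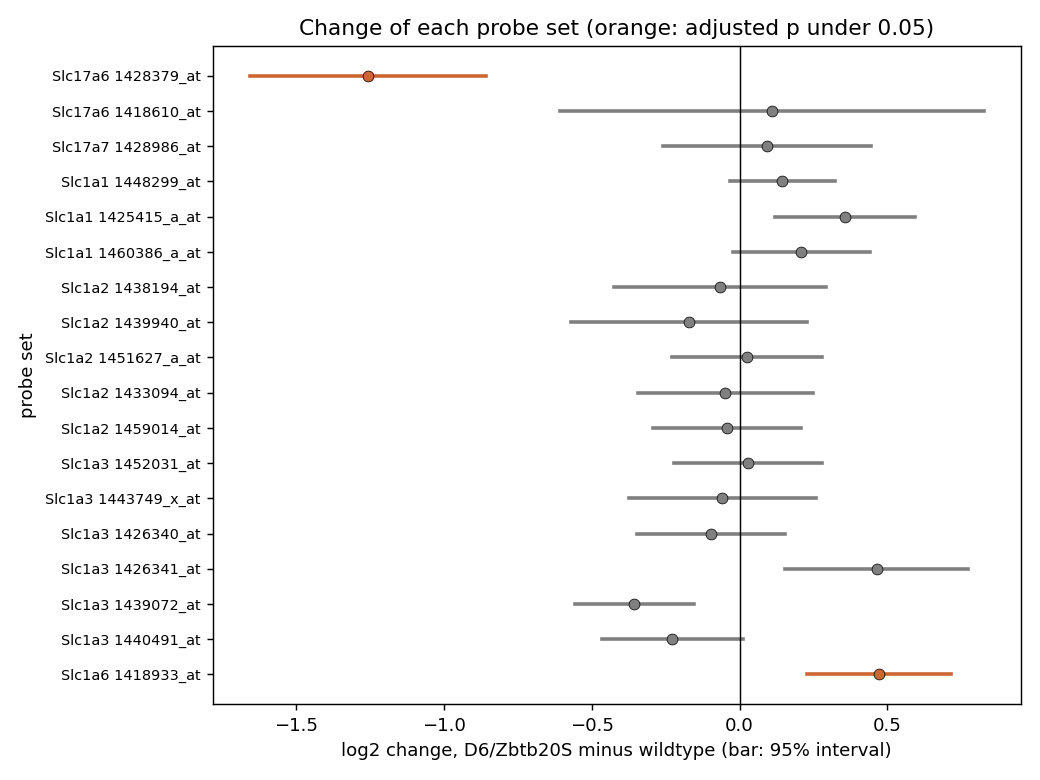
Log2 change, D6/Zbtb20S minus wildtype (horizontal axis), of each of the 18 probe sets (vertical axis); points are estimates from 3 arrays per group, bars are 95% intervals from limma, and orange marks an adjusted p under 0.05. Slc17a6 1428379_at lies at -1.26 and Slc1a6 at 0.47, the 3 Slc1a1 probe sets lie right of 0, and those of Slc1a2 and Slc1a3 lie on both sides.

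Slc1a2 encodes GLT-1, the main glutamate transporter of mature astrocytes. None of its 5 probe sets passed, with changes between -0.17 and 0.027 and an adjusted p of at least 0.677. The brightest, 1438194_at, read 7.59, 7.96 and 8.24 in wildtype and 7.76, 7.82 and 8.01 in D6/Zbtb20S. The D6/Zbtb20S arrays lay inside the wildtype range, and the 95% interval of the change was -0.43 to 0.29. On 1439940_at wildtype read 4.68, 5.01 and 4.61 and D6/Zbtb20S 4.39, 4.41 and 4.99, a change of -0.17 ± 0.17 (SE). The remaining 3 probe sets (1451627_a_at, 1433094_at and 1459014_at) had both group means under the array median. At unadjusted p under 0.05 the Slc1a2 probe sets gave 0 calls as well.

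Slc1a3 encodes GLAST, a transporter of radial glia and astrocytes and a marker of both. None of its 6 probe sets passed, and 2 of them leaned opposite ways. The 3 brightest showed little difference: 1452031_at at 0.028 ± 0.11 (SE), 1443749_x_at at -0.058 ± 0.14 (SE) and 1426340_at at -0.095 ± 0.11 (SE), with adjusted p from 0.717 to 0.928. On 1452031_at wildtype arrays read 8.72, 8.65 and 8.78 and D6/Zbtb20S arrays 8.94, 8.75 and 8.54, so the groups overlapped, and its 95% interval ran from -0.22 to 0.28. Names ending in _x_at, as on 1443749_x_at, mark probes that can match more than 1 transcript.

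On 1426341_at, a dimmer Slc1a3 probe set, wildtype arrays read 4.88, 4.99 and 5.42 and D6/Zbtb20S arrays 5.54, 5.56 and 5.58. The D6/Zbtb20S arrays were close together and above wildtype, with wildtype replicate 3 nearest to them. The change was 0.46 ± 0.14 (SE) and missed the threshold (adjusted p = 0.101). Without wildtype replicate 3 it was 0.63 and passed (adjusted p = 0.00531), and it passed with array weights too (0.52, adjusted p = 0.0172). On 1439072_at wildtype read 4.51, 4.40 and 4.51 and D6/Zbtb20S 3.996, 4.15 and 4.21. Here the D6/Zbtb20S arrays all lay under wildtype, and the change of -0.36 ± 0.087 (SE) also missed the threshold (adjusted p = 0.0552). It passed with equal array medians (adjusted p = 0.0407), quantile normalization (0.0324), array weights (0.031) and among bright probe sets only (0.0413). The sixth, 1440491_at, lay under the array median in both groups (-0.23 ± 0.10, SE; adjusted p = 0.307). As the mean of its 6 probe sets Slc1a3 was at -0.041 ± 0.088 (SE; adjusted p = 0.845). The Slc1a2 minus Slc1a3 difference within arrays, on their brightest probe sets, shifted by -0.095, less than its spread (SD 0.31 in wildtype and 0.33 in D6/Zbtb20S, n = 3 each; exact two-sided permutation p = 0.80; 0.80 adjusted over 3 pairs), and turned to 0.029 without wildtype replicate 3 and 0.055 without D6/Zbtb20S replicate 1.

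The genes that make, carry and power the uptake of glutamate were examined in 5 lists with 50 measured genes, each represented by its brightest probe set and adjusted over 18193 genes. Of the 50, 1 rose and 1 fell, against 7.71% of all genes called (4.06% higher and 3.64% lower), and the median log2 change was -0.08 against -0.015 over all genes. Slc25a18, a mitochondrial glutamate carrier, was 1.73-fold lower, at 5.68 ± 0.069 (SD, n = 3) for wildtype and 4.88 ± 0.24 (SD, n = 3) for D6/Zbtb20S (-0.79 ± 0.12, SE; adjusted p = 0.00261), the 1 called gene among 15 related amino acid and mitochondrial transporters. It passed with any 1 array left out and not in the ordinary linear model (adjusted p = 0.112). Oat, the ornithine aminotransferase that links ornithine to glutamate, was 1.26-fold higher (0.33 ± 0.087, SE; adjusted p = 0.0483), the 1 called gene among 9 glutamate metabolism enzymes. Oat lost its call without any array but wildtype replicate 3 (adjusted p up to 0.188). Without wildtype replicate 3 the aminotransferase gene Gpt2 gained a call (0.49 ± 0.13, SE, limma adjusted p = 0.0431, against 0.218 with all arrays). Without D6/Zbtb20S replicate 1 the cystine-glutamate exchanger gene Slc7a11 did (0.86 ± 0.18, SE, adjusted p = 0.0413, against 0.341). Slc7a11 was dim, with both group means under the array median. They were 2.05 ± 0.27 (SD, n = 3) for wildtype and 2.56 ± 0.65 (SD, n = 3) for D6/Zbtb20S.

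Of 16 genes of the vesicular proton pump and chloride channel, which supply the driving force for VGLUT loading, 0 passed in limma. Their median was -0.0037 with changes from -0.22 to 0.24, 2 had an unadjusted p under 0.05, and 0 passed with array weights or the ordinary model. Closest to the threshold were the subunit genes Atp6v1g2 (0.24 ± 0.077, SE; adjusted p = 0.101) and Atp6v1g1 (-0.22 ± 0.095, SE; adjusted p = 0.222). Of 5 genes of the sodium and potassium gradient, which drives the plasma membrane transporters, 0 passed (2 at unadjusted p under 0.05, 1 with array weights and 0 in the ordinary model). The glial potassium channel gene Kcnj10 was nearest, at -0.41 ± 0.11 (SE; adjusted p = 0.0539), and Atp1b1, a sodium pump subunit, was at -0.25 ± 0.11 (SE; adjusted p = 0.23). Of 5 genes for proteins that bind glutamate transporters 0 passed (1 at unadjusted p under 0.05, 0 by either other model), with Slc9a3r1, a scaffold gene, at 0.27 ± 0.11 (SE; adjusted p = 0.203) and the endophilin gene Sh3gl2 at -0.17 ± 0.093 (SE; adjusted p = 0.339).

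**Figure D3:**
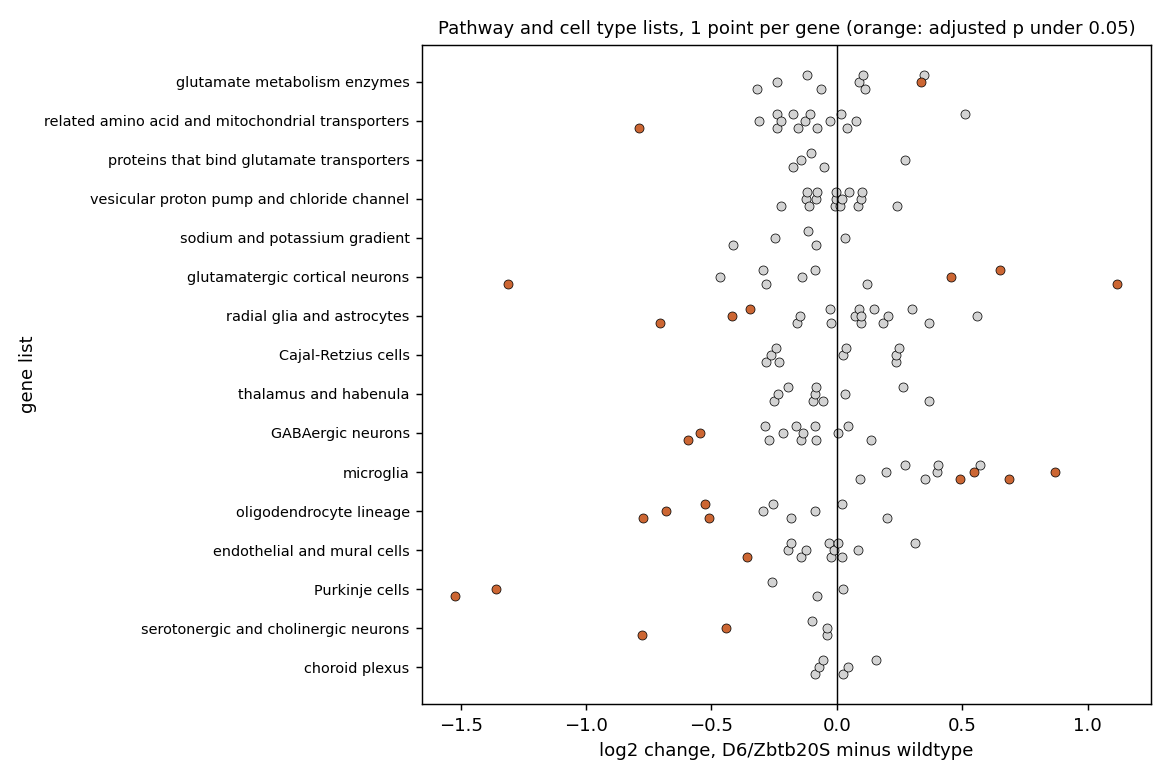
Log2 change, D6/Zbtb20S minus wildtype (horizontal axis), of each measured gene (1 point) in 5 pathway lists and 11 cell type lists (vertical axis); points are spread vertically within a list for visibility, and orange marks an adjusted p under 0.05 over all genes. In the pathway lists Slc25a18 and Oat are the 2 orange points, and the Cajal-Retzius and thalamus lists have none.

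Lists of markers for the cell types that carry these transporters were examined in the same way. They give RNA levels of genes in pooled tissue and do not count cells. Over all genes 4.06% were called higher and 3.64% lower. At unadjusted p under 0.05 limma called 17.7% of all probe sets, and the share over genes was not computed here. Of 10 genes of glutamatergic cortical neurons, all with wildtype means above the array median, 3 rose and 1 fell. The proneural factor Neurod2 rose 2.17-fold on its brightest probe set (1.12 ± 0.11, SE; adjusted p = 0.000213), and Camk2a, a synaptic kinase, by 1.57-fold and Nrn1, a neurite growth factor, by 1.37-fold. The synaptic vesicle protein gene Sv2b fell by 1.31 on the log2 scale (2.48-fold lower, adjusted p = 0.00121) on its brighter probe set. Its other probe set was at -0.68 ± 0.10 (SE; adjusted p = 0.00628 over all probe sets). Of the 2 other Neurod2 probe sets 1 was called, at 0.55 ± 0.10 (SE; adjusted p = 0.0191 over all probe sets), the remaining one was at -0.0035, and the mean of all 3 was 0.55 (adjusted p = 0.00299). Nrn1 lost its call without wildtype replicate 2 (adjusted p = 0.0656). Camk2a lost it in 4 such fits, leaving out replicate 1 (0.0747) or 2 (0.0969) of wildtype and 1 (0.0894) or 3 (0.0716) of D6/Zbtb20S, and none of its 5 other probe sets was called. Without wildtype replicate 1 the synaptic gene Nrgn gained a call, at -0.62 ± 0.15 (SE; adjusted p = 0.047, against 0.126 with all arrays), which made 2 higher and 2 lower. Without wildtype replicate 2 the count was 1 higher and 1 lower. The list's median change was -0.11, and its mean log2 signal per array was 7.34 to 7.50 in wildtype and 7.32 to 7.46 in D6/Zbtb20S.

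Slc17a6 is also known from Cajal-Retzius cells, the first neurons of the cortical surface, and from the thalamus and habenula, which lie near the dissected areas. Of 9 Cajal-Retzius genes 0 passed in limma (4 at unadjusted p under 0.05, 0 with array weights or in the ordinary model). The list's mean signal was 5.21 to 5.37 in wildtype and 5.16 to 5.38 in D6/Zbtb20S. Lhx1, Lhx5 and Ebf3 were under the array median in both groups, and the 2 genes with the smallest p were Lhx5 (-0.24 ± 0.082, SE; adjusted p = 0.117) and the p53-family gene Trp73 (-0.26 ± 0.10, SE; adjusted p = 0.176). The calcium channel subunit gene Cacna2d2 passed without wildtype replicate 3 (0.35 ± 0.09, SE; adjusted p = 0.0435, against 0.202). Of 10 thalamus and habenula genes 0 passed (2 at unadjusted p under 0.05, 1 with array weights and 0 in the ordinary model). The mean signal was 4.13 to 4.31 in wildtype and 4.10 to 4.25 in D6/Zbtb20S. Gbx2, Pou4f1 and Slitrk6 were under the array median, and nearest to the threshold were Prkcd (0.37 ± 0.10, SE; adjusted p = 0.06) and Lef1 (-0.19 ± 0.077, SE; adjusted p = 0.19). Prkcd passed without D6/Zbtb20S replicate 2 (adjusted p = 0.0442). The part of either cell source in the Slc17a6 result was not tested.

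Beside Slc1a2 and Slc1a3, the list of radial glia and astrocyte genes had 0 of 17 higher and 3 lower, with a median change of 0.089. Ptprz1, a receptor phosphatase gene, was 1.63-fold lower on its brightest probe set (-0.70 ± 0.08, SE; adjusted p = 0.000527). Of its 2 other probe sets 1 was called, at -0.50 (adjusted p = 0.0217 over all probe sets), and the remaining one was at -0.31 (0.114). The mean of its probe sets was -0.51 (adjusted p = 0.00252). Sox2, a progenitor factor, was at -0.42 ± 0.11 (SE) and Slc4a4, a bicarbonate transporter, at -0.35 ± 0.081 (SE). Sox2 lost its call without wildtype replicates 2 (adjusted p = 0.116) or 3 (0.0956) and D6/Zbtb20S replicates 2 (0.135) or 3 (0.121). Slc4a4 lost its call with any 1 array left out (adjusted p from 0.053 to 0.103), and none of its 4 other probe sets was called. Without wildtype replicate 3 the list had 2 higher and 1 lower: the astrocyte genes Aqp4 (0.61 ± 0.12, SE; adjusted p = 0.0117, against 0.312 with all arrays) and Gfap (0.77 ± 0.18, SE; adjusted p = 0.0316, against 0.167) passed, and Ptprz1 was the 1 that stayed lower. With any 1 of the other arrays left out, 0 were higher and 1 to 2 lower. The list's mean signal was 7.58 to 7.76 in wildtype and 7.60 to 7.70 in D6/Zbtb20S.

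Some markers of other cell types also passed, beside 4.06% of all genes called higher and 3.64% lower. Of 11 microglial genes 4 were higher, Cx3cr1, Tyrobp, Fcrls and Ctss, and the list's mean signal was 5.17 to 5.31 in wildtype and 5.56 to 5.84 in D6/Zbtb20S. The count was 3 to 6 with 1 array left out, 8 with array weights and 0 in the ordinary model. The other Cx3cr1 probe set was at -0.0069 (adjusted p = 0.977 over all probe sets), and the mean of both was 0.43 (adjusted p = 0.0162). Fcrls lost its call in 4 of the 6 fits (adjusted p up to 0.125), while Csf1r and P2ry12 passed without wildtype replicate 3 (adjusted p = 0.0325 and 0.041) or D6/Zbtb20S replicate 2 (0.031 and 0.0206), and C1qc without wildtype replicate 1 (0.0358). Of 10 oligodendrocyte genes 4 were lower, Olig1, Olig2, Cnp and Mbp (mean signal 5.69 to 5.92 against 5.42 to 5.56). All 4 passed with any 1 array left out, and the list had 5 calls with array weights and 2 in the ordinary model. The called Cnp probe set is of the _x_at type, and neither of its 2 other probe sets was called. Their mean with it was -0.34 (adjusted p = 0.0337). Of the 7 other Mbp probe sets 3 were called, also lower. Of 13 GABAergic genes 2 were lower, Gad1 and Nxph1 (5.77 in all wildtype arrays against 5.53 to 5.63). Nxph1 lost its call in 4 of the 6 fits (adjusted p up to 0.135), and the list had 3 calls with array weights and 0 in the ordinary model. The other Gad1 probe set was at -0.44 and was not called (adjusted p = 0.0989 over all probe sets), nor was either of the 2 other Nxph1 probe sets. As means of their probe sets Gad1 was at -0.52 (adjusted p = 0.00211) and Nxph1 at -0.42 (adjusted p = 0.0162). Across all lists, 15 genes were higher and 13 lower without wildtype replicate 3, against 8 and 16 with it: 21 were called both times, 7 gained a call, all higher, and 3 lost one, all lower. The part of these in the transporter values was not tested.

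Genes whose profile over the 6 arrays was most like that of the members with a call were found by the root mean square difference of log2 values, each centred on its own mean. This is a description; the genotype step dominates it. For Slc17a6 (1428379_at) the closest were the cadherin gene Cdh9 at 0.12, the protocadherin gene Pcdh17 at 0.13, and the metalloprotease gene Adamts20, the AMPA receptor-associated gene Shisa9 and Dpy19l3 at 0.14, against a median of 0.68 over all genes. Their log2 changes lay between -1.497 (Adamts20) and -1.13 (Cdh9). The Shisa9 probe set is of the _x_at type, and none of the other probe sets of Pcdh17, Shisa9 or Dpy19l3 was called. For Slc1a6 the closest were Nrn1 at 0.042, the adenylate cyclase gene Adcy5 at 0.05, and Resp18, the sodium-calcium exchanger gene Slc24a4 and Vstm5 at 0.056 to 0.057, against a median of 0.28. Their changes lay between 0.42 (Slc24a4) and 0.53 (Resp18). Vstm5 was not called (adjusted p = 0.0525). Adcy5 and Resp18 each lost their call in 4 of the 6 fits with 1 array left out (adjusted p up to 0.158 and 0.11), and Slc24a4 lost it without wildtype replicate 2 (adjusted p = 0.0784). None of the 3 other Adcy5 probe sets was called, and their mean with the first was 0.11 (adjusted p = 0.496).

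**Figure D4:**
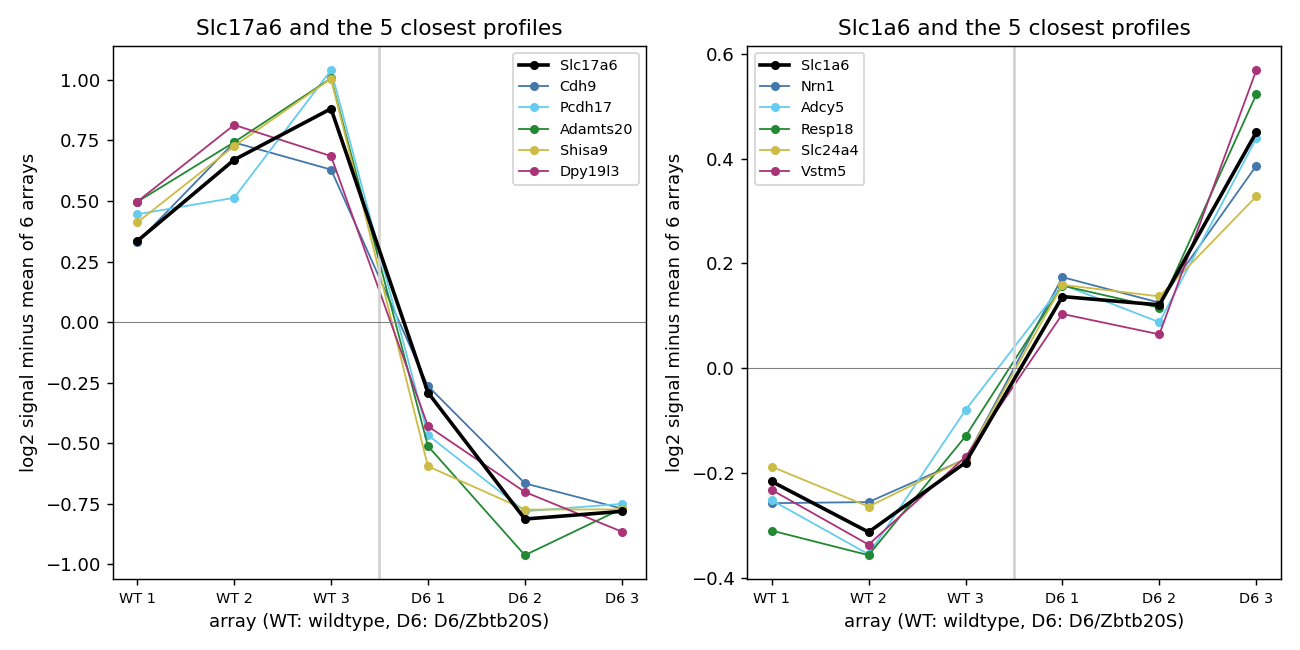
Log2 signal minus the mean of the 6 arrays (vertical axis) on each array (horizontal axis; WT wildtype, D6 D6/Zbtb20S) for Slc17a6 1428379_at (left, black) and Slc1a6 (right, black) with the 5 genes closest to each; lines join the values of 1 probe set, and replicates have no order. On the left all D6/Zbtb20S values lie under all wildtype values, and on the right all lie above them.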

How the data were processed

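The authors deposited log2 values, 1 for each probe set on each array; per the submitters' processing notes they used RMA and limma, whose versions, and a build, are not given in the sources used here. RMA removes background, scales arrays to each other and combines the probes of a set. That the scale is log2 was inferred from the values' range; the last scaling or centring remains unknown (array medians 3.83 to 3.97).

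After 64 of 45101 probe sets, the array's controls, were left out, limma 3.58.1 in R 4.3.3 (lmFit, eBayes, no covariates) was fitted to 45037 probe sets. All p-values were adjusted together by Benjamini-Hochberg, with a threshold of 0.05. The fit was tested on simulated data. Changes are D6/Zbtb20S minus wildtype, ± is labelled SD or SE, and intervals are 95%. Gene lists used the brightest of a gene's probe sets, over 18193 genes; probe sets with 1 symbol numbered 34945, with several 932 and without a name 9160. From each list up to 6 passing genes could be named, or the 2 with the smallest p, and the 5 closest profiles per called member. Promoters came from RefSeq windows of GRCm38.p6, a build the files do not name; all 7 symbols matched. Members and lists were chosen with earlier results of these data known. Plots were made in Python 3.11.15 with matplotlib 3.10.9. Tried as alternatives were a block for replicate number, 5 arrays in place of 6, median scaling, quantiles, weighted arrays, a trend on intensity, bright probe sets only (3 or more arrays over their median), a linear model without moderation, and 1 value per gene. Precision is limited by how few arrays there are.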

Additional observations from a re-analysis of the deposited data

How the results depend on the processing

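With all arrays, 2 member probe sets, 2484 of all probe sets and 24 of 158 distinct list genes passed. Array weights gave 4, 4710 and 41, and the ordinary linear model 0, 200 and 4. At an unadjusted p under 0.05 in limma with all arrays, 5 of the 18 member probe sets passed (27.8%), against 17.7% of all probe sets. Leaving out 1 array gave 1 to 2 members, 1162 to 2881 probe sets and 14 to 28 list genes (8 higher and 16 lower with all arrays, 15 and 13 without wildtype replicate 3); the lowest counts of probe sets were 1162 without wildtype replicate 2, 1306 without D6/Zbtb20S replicate 2 and 1341 without D6/Zbtb20S replicate 1, and the lowest count of list genes was 14 without wildtype replicate 2. Without wildtype replicate 3 the 2 members that passed were Slc17a6 and Slc1a3 1426341_at. With probe sets averaged by gene 1 member gene passed, Slc1a6. That gene has 1 probe set, so averaging left its change at 0.47 and was no check of it. The within-array shift was 1.17 to 1.58 for Slc17a7 against Slc17a6 (-0.018 with the other Slc17a6 probe set, a comparison chosen after seeing the data), 1.21 to 1.57 for the Slc17a6 probe sets, and -0.27 to 0.055 for Slc1a2 against Slc1a3, with 1 array left out. The pair of Slc17a6 probe sets was also chosen by their calls in these data. The replicate block gave 2 members, 3304 probe sets and 23 list genes. Arrays with the same number had correlated deviations of -0.033, 0.18 and 0.21, and wildtype replicate 1 correlated best with D6/Zbtb20S replicate 2, so the numbers were not taken to pair the arrays. Among members without a call, the sign turned with 1 array left out on Slc17a6 1418610_at (-0.19 to 0.41), Slc17a7 (-0.066 to 0.23), Slc1a2 1438194_at (-0.24 to 0.088), 1451627_a_at (-0.036 to 0.13), 1433094_at (-0.20 to 0.030) and 1459014_at (-0.11 to 0.072), and Slc1a3 1452031_at (-0.070 to 0.13) and 1443749_x_at (-0.18 to 0.10). With array weights Slc17a7 was at -0.10 and Slc1a2 1451627_a_at at -0.060, and as a mean of probe sets Slc1a3 was at -0.041. The filter on dim probe sets left 12 of the 18 members, without Slc1a6. The cause of these shifts was not tested. Dim probe sets have compressed changes, which limits what can be said of Slc17a7 and Slc1a6.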

Other observations

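Slc17a8 is known from serotonergic and cholinergic neurons, and a list of their markers had 2 of 5 genes lower: Tph2, the serotonin-synthesising enzyme (-0.78 ± 0.18, SE; limma adjusted p = 0.0255), and Slc6a4, the serotonin transporter (-0.44 ± 0.09, SE; adjusted p = 0.0149). Over all genes 3.64% were called lower. The list's cholinergic genes Chat (-0.039), Slc18a3 (-0.040) and Slc5a7 (-0.10) were not called, and all 5 lay under the array median in both groups. The list does not stand in for Slc17a8, which had no probe set under the rule. Tph2 passed in 2 of the 6 fits with 1 array left out and Slc6a4 in 4, with adjusted p up to 0.092 and 0.0766. Of 12 endothelial and mural genes 1 was lower, the glucose transporter gene Slc2a1 (-0.36 ± 0.08, SE; adjusted p = 0.0243). Among the fits with 1 array left out, Slc2a1 passed only without wildtype replicate 1 (adjusted p up to 0.122). Neither of its 2 other probe sets was called, and their mean with the brightest was -0.28 (adjusted p = 0.0343). The pericyte gene Pdgfrb passed without wildtype replicate 3 (0.44 ± 0.095, SE; adjusted p = 0.021, against 0.158 with all arrays). Of 6 choroid plexus genes 0 passed in limma, 0 had an unadjusted p under 0.05, and 0 passed with array weights or in the ordinary linear model.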
